A study of Mus musculus with 4 samples.

Results

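The genes described here encode the pore-forming and auxiliary subunits of potassium, sodium and calcium channels. They were chosen by symbol alone, as every non-control probe whose gene name on the array begins with Kcn, is Scn with a number and a or b, is Scnn1a, Scnn1b or Scnn1g, or begins with Cacn, leaving out the antisense transcript Kcnq1ot1. This gave 192 of the 39429 non-control probes, for 136 genes, of which 106 could be tested among the 24150 genes tested in all. RNA came from mouse embryonic kidneys at E15.5, of a hybrid of 129 and C57BL/6 carrying a Six2GFP reporter, and flow sorting separated cells with GFP from cells without it. Six2 is a transcription factor that marks the nephron progenitors of the developing kidney, and the study's design text names the positive cells nephron progenitors; the negative cells are all that the sort left, a mixture of other kidney cells. A description shared by all samples mentions tamoxifen, which no protocol does. There were 2 Six2GFP-positive and 2 Six2GFP-negative samples, each on its own 1-colour Agilent array. The labels do not say how the reporter allele was built, how many embryos were pooled or whether samples 1 and 2 came from separate litters, so the p-values measure only the spread between these samples, which may be technical.

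Voltage-gated channels open on a change in membrane potential, and their pore-forming alpha subunits assemble with auxiliary subunits that set how many channels reach the membrane and how they gate. Inwardly rectifying and tandem-pore-domain potassium channels set the resting potential. In the kidney, tubule cells use them to recycle or secrete potassium, and the epithelial sodium channel of the collecting duct takes up sodium from the urine. Vascular and interstitial cells, neurons and muscle carry other sets of the same families.

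Six2 itself separated the groups. As log2 signal less the 75th percentile of the array, it stood at 5.58 and 5.74 log2 on the positive arrays, against -0.17 and -0.15 on the negative arrays. Of 6 nephron progenitor markers (Six2, Cited1, Osr1, Meox1, Crym and Eya1), 5 were higher in positive cells and Eya1 did not pass the test, with a difference of 0.04. The 6 early nephron and podocyte markers, 6 ureteric bud and collecting duct markers, 5 mural markers, 4 endothelial markers and 4 proximal tubule markers were all lower in positive cells. Other lists were mixed. Of 4 stroma markers 3 were lower, and Foxd1 did not pass the test (difference -0.21, limma adjusted p = 0.306). Of 5 blood markers 4 were lower, and Csf1r did not pass (difference -0.53, limma adjusted p = 0.120). Of 4 loop and distal tubule markers 1 was lower. Of 5 tested neuronal and glial markers 2 were lower and 1 higher, and of 3 tested skeletal muscle markers 1 was higher. No spot was saturated, and 72.5 to 79.1% of spots per array were well above background. With 2 arrays a group, precision is limited by the number of arrays.

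Among the 106 tested channel genes, 58 passed the test (limma, Benjamini-Hochberg adjusted p of at most 0.05 over all 24150 genes), against 38.9% of all genes tested. In positive cells 16 channel genes were higher, or 15.1%, against 20.7% of all genes, and 42 were lower, or 39.6%, against 18.3% of all genes. By at least 2-fold, 9 were higher, against 3.63% of all genes, and 35 were lower, against 12.7% of all genes. The median difference of the tested channel genes was -0.11 log2, and -0.10 with dim genes at their bound, against 0.15 over all genes tested. A probe entered the test if both arrays of either group detected it well above background. Of the tested channel genes, 14 passed this filter with no positive array well above background, against 3.60% of all genes tested, and 1, Kcnq5, with no negative array well above background, against 0.398% of all genes tested. These had to differ to be tested, so the counts that include them are a description. With the 83 channel genes whose probe was well above background on all 4 arrays, 16 were higher and 25 lower, or 19.3% and 30.1%, against 23.9% and 16.4% of all genes under the same filter. The number higher was smaller with any 1 array left out, for channel genes and over all genes tested. Such a fit leaves 1 array in a group. The share of channel genes higher, below that of all genes with all 4 arrays, was above it in each of these fits. The number higher also depended on scaling. The split of 16 higher and 42 lower was 29 and 38 after quantile normalization (27.4% and 35.8%), against 24.9% and 17.7% of all genes, and 34 and 38 after centring on the array median (32.1% and 35.8%), against 44.8% and 15.6%. It was 24 and 37 after normexp background correction with the 75th percentile (22.6% and 34.9%), against 28.7% and 17.4% of all genes, and 29 and 38 after normexp with quantile normalization (27.4% and 35.8%), against 26.2% and 18.5%. Normexp, which here adds an offset of 50 to every signal and so draws low signals together, also made folds smaller: with the 75th percentile, 57 of the 58 called channel genes kept their direction, 31 had a fold smaller by over 1.5 times, and all 14 called genes that were dim in a group fell short of the bound given here. A fold of at least a given size therefore refers to the scanner's processed signal only, and for genes named here whose fold moved this far the difference with normexp and the 75th percentile, called the normexp difference, is given as well. In bulk RNA, fewer cells of a type and less RNA per cell cannot be told apart.

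**Figure D1:**
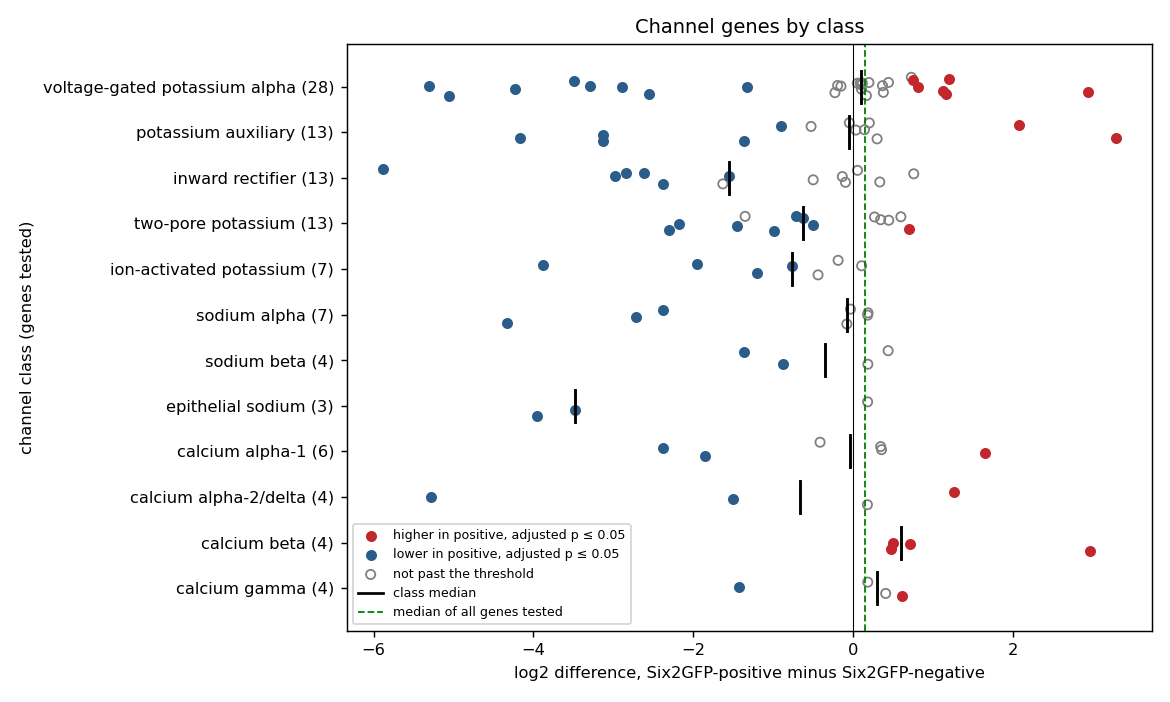
Log2 difference of each of the 106 tested channel genes, Six2GFP-positive minus Six2GFP-negative, in rows by channel class (number tested in brackets); filled points passed the test, open points did not, black bars are class medians and the dashed line is the median of all genes tested, 0.15. Points to the left are lower in positive cells: the inward rectifiers, ion-activated potassium channels and sodium channels hold no higher call with this scaling to the 75th percentile, and all 4 calcium channel beta subunits lie to the right.

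By family, 9 of 74 tested potassium channel genes were higher and 30 lower, none of 14 sodium channel genes were higher and 7 lower, and 7 of 18 calcium channel genes were higher and 5 lower. Among potassium channels the voltage-gated alpha subunits held 6 higher and 8 lower of 28 (21.4% and 28.6%). Their share higher was thus near that of all genes. The auxiliary subunits held 2 higher and 5 lower of 13 (15.4% and 38.5%). The inward rectifiers held 0 higher and 6 lower of 13 (46.2% lower). The tandem-pore-domain channels held 1 higher and 7 lower of 13 (7.69% and 53.8%), and the calcium- or sodium-activated channels 0 higher and 4 lower of 7 (57.1% lower). Of all genes tested, 24.9% were higher and 17.7% lower after quantile normalization, and 44.8% and 15.6% after centring on the array median. These shares were 28.7% and 17.4% after normexp with the 75th percentile, and 26.2% and 18.5% after normexp with quantile normalization. The tandem-pore-domain split was 3 higher and 4 lower after quantile normalization, and 4 and 4 after centring on the array median and with either normexp setting. The auxiliary split was 4 and 5 after quantile normalization, with or without normexp, 5 and 5 after centring on the array median and 3 and 5 after normexp with the 75th percentile, and that of the voltage-gated alpha subunits lay between 7 and 9 higher and 8 and 9 lower under these scalings. The ion-activated channels had no higher call under any of the scalings tried. Among inward rectifiers 2 were called higher after normexp with the 75th percentile and 1 under each of the other 3 scalings. Of the sodium channel genes, 1 alpha, 1 beta and 1 epithelial subunit were called higher after quantile normalization, with or without normexp, and 2 alpha, 1 beta and 1 epithelial subunit after centring on the array median. Differences of the smaller kind should be read relative to that shift, since the median of all genes moved to 0.41 with centring on the array median.

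Signals are log2 values less the 75th percentile of their array, given for array 1 and then array 2 of a group, and differences are positive minus negative with the standard error of the limma fit (n = 2 arrays each). Where no array of a group was well above background, the fold is a bound, written "at least": the brighter group's mean against, per array, the higher of the lowest signal well above background and the dim probe's own. All 20 tested channel genes whose groups overlapped were among those that did not pass the test. A lack of overlap in a called gene therefore describes its values and adds no support to its call.

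**Figure D2:**
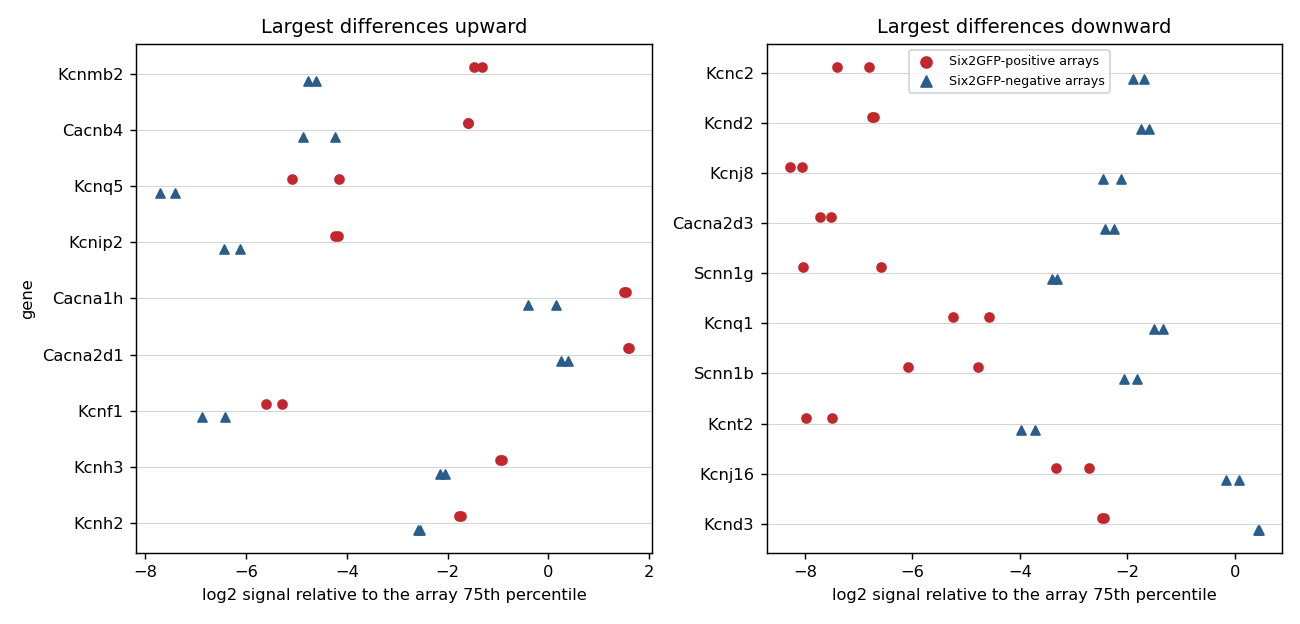
Log2 signal on each array, less the 75th percentile of that array, with groups by symbol (circles, Six2GFP-positive; triangles, Six2GFP-negative) for channel genes among the 10 with the largest differences past the threshold in each direction, ranked with the bound where a group was dim. Circles and triangles do not overlap for any gene shown; Scnn1g and Scnn1b show the widest gaps between their positive arrays.

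Among voltage-gated potassium channels, 2 of the 3 transient Kcnd pores fell in positive cells. Kcnd2, a pore of the fast A-type current, was at -6.72 and -6.75 on the positive arrays, against -1.75 and -1.61 on the negative arrays (probe at chr6:21679569-21679628, plus strand; this and all probe positions are mm9, as in the array files). Its difference of -5.06 ± 0.10 made it 33.3-fold lower (limma adjusted p = 5.0e-04), with 1 of 2 positive arrays well above background. Kcnd3, of the same family, was at -2.48 and -2.43 on the positive arrays, against 0.45 and 0.42 on the negative arrays, a difference of -2.89 ± 0.08 (limma adjusted p = 5.0e-04). Neither gene's groups overlapped. The third member, Kcnd1, differed by 0.09 ± 0.10 and did not pass the test (limma adjusted p = 0.486). The Kcnip genes encode calcium-binding partners of these pores, and they divided. Kcnip2 was at -4.23 and -4.18 in positive cells, against -6.12 and -6.45 in negative cells, 4.23-fold higher with a difference of 2.08 ± 0.14 (limma adjusted p = 0.00202). Kcnip3 was lower by a difference of -0.90 ± 0.16 (limma adjusted p = 0.0199), a call lost without positive array 2 (adjusted p = 0.0580), negative array 1 (0.0820) or negative array 2 (0.0718). Kcnip4 was at least 1.78-fold lower (limma adjusted p = 7.6e-04), dim on both positive arrays, while Kcnip1 did not pass the test. Kcnip2 was thus higher in the positive samples, in which Kcnd2 and Kcnd3 were lower. The normexp difference was -2.68 for Kcnd2, 0.86 for Kcnip2, below 2-fold, and -0.31 for Kcnip4. Dpp6 and Dpp10, membrane partners of the same pores outside the symbol rule, were higher in positive cells by 1.08 ± 0.12 and 0.34 ± 0.08.

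Kcnb2, a delayed-rectifier pore, and the silent subunits that modify such pores divided. Kcnb2 was at -7.71 and -7.47, with neither array well above background, against -4.92 and -5.17 in negative cells, at least 3.74-fold lower (limma adjusted p = 0.00138). Its groups did not overlap. Kcnf1, Kcns3 and Kcnv2 form no channel alone and modify delayed-rectifier pores. Kcnf1 was higher, at -5.29 and -5.60, against -6.42 and -6.87 in negative cells (difference 1.20 ± 0.21, limma adjusted p = 0.0198; 0.0767 without positive array 1 and 0.0608 without negative array 2). The other tested Kcnf1 probe did not pass the test (difference 0.53, limma adjusted p over all probes = 0.134). Kcns3 was 2.51-fold lower (limma adjusted p = 0.00331). Kcnv2 was at -8.66 and -9.02, neither array well above background, against -4.31 and -4.91 in negative cells, at least 5.04-fold lower (limma adjusted p = 0.00155). By normexp the difference was -0.46 for Kcnb2, 0.48 for Kcnf1 and -0.86 for Kcnv2, each below 2-fold. Amigo1, a membrane protein that binds delayed-rectifier pores and lies outside the symbol rule, was at -0.60 and -0.56 in positive cells, against -3.34 and -3.43 in negative cells, 6.98-fold higher (difference 2.80 ± 0.09, limma adjusted p = 5.3e-04).

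Of the other voltage-gated potassium alpha subunits, Kcnc2 showed the largest decrease by its bound. It was at -7.41 and -6.80 in positive cells, not well above background on either array, against -1.69 and -1.90 in negative cells, at least 35.5-fold lower (limma adjusted p = 8.6e-04; probe at chr10:111902778-111902837, plus strand). Kcnc1, a related fast-gating pore, was higher instead, by 0.75 ± 0.13 (limma adjusted p = 0.0191), a call that was lost without either positive array or without negative array 2. Kcnc4 did not pass the test. In the ether-a-go-go family Kcnh3 was at -0.96 and -0.92 in positive cells, against -2.06 and -2.15 in negative cells, 2.24-fold higher (difference 1.16 ± 0.09, limma adjusted p = 0.00251). Kcnh2, the hERG channel of cardiac repolarisation, was at -1.73 and -1.77, against -2.55 and -2.59, a difference of 0.82 ± 0.08 (limma adjusted p = 0.00519). Both genes held tight replicate values with no overlap. Kcnh5 ran the other way and was at least 3.13-fold lower, dim on both positive arrays (limma adjusted p = 0.00896; 0.0524 without negative array 1). The normexp difference was -2.67 for Kcnc2 and -0.50 for Kcnh5.

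The Kcnq family divided as well. Kcnq5, a neuronal and smooth muscle M-current subunit, was at -4.15 and -5.10 in positive cells, against -7.42 and -7.71 in negative cells, where neither array was well above background. It was at least 6.24-fold higher (limma adjusted p = 0.00856; 0.0550 without negative array 2). Kcnq1, which pairs with Kcne subunits in epithelia and heart, was at -4.57 and -5.25 in positive cells, against -1.34 and -1.50 in negative cells, 11.2-fold lower (difference -3.49 ± 0.26, limma adjusted p = 0.00249). Kcne4, an inhibitory partner, was at -8.28 and -8.52 in positive cells, neither array well above background, against -4.00 and -4.48 in negative cells, at least 6.53-fold lower (limma adjusted p = 9.7e-04). Kcne3, the partner that keeps the epithelial channel open, was 2.58-fold lower, at -5.16 and -5.14, against -3.68 and -3.87 (limma adjusted p = 0.00262). Kcnq1, Kcne3 and Kcne4 were thus lower in the positive samples. Kcne1l, of the same Kcne family, did not pass the test (difference -0.04, limma adjusted p = 0.757), and Kcne1 and Kcne2 could not be tested. By normexp the difference was 0.95 for Kcnq5, -2.37 for Kcnq1, -0.95 for Kcne4 and -0.61 for Kcne3. In the Kcna family, Kcna4 lay above the 75th percentile of every array, at 2.66 and 2.63 in positive cells and 2.48 and 2.56 in negative cells, and its difference of 0.12 ± 0.09 did not pass the test (limma adjusted p = 0.326). None of Kcna1, Kcna3, Kcna5, Kcna6 and Kcna7 passed it.

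Among auxiliary subunits of the large-conductance calcium-activated channel, Kcnmb2 had the largest increase of all channel genes and Kcnmb1 fell. Kcnmb2, the subunit that makes the channel inactivate, was at -1.48 and -1.32 in positive cells, against -4.78 and -4.61 in negative cells (probe at chr3:32098621-32098680, plus strand). This was 9.81-fold, a difference of 3.29 ± 0.12 (limma adjusted p = 5.8e-04), with both positive arrays above both negative arrays. Kcnmb1, the smooth muscle subunit, was at -9.29 and -9.09, dim on both arrays, against -6.31 and -5.81 in negative cells, at least 1.85-fold lower (limma adjusted p = 0.00184). The normexp difference was 2.45 for Kcnmb2 and -0.35 for Kcnmb1. Kcnma1, the pore to which both bind, was at -4.32 and -4.69 in positive cells and -4.01 and -4.13 in negative cells, and its difference of -0.44 ± 0.16 did not pass the test (limma adjusted p = 0.103). Kcnmb4, a further subunit of the same channel, also did not pass. Lrrc55, a partner of this channel outside the symbol rule, was at least 1.34-fold lower in positive cells, a call lost with normexp and the 75th percentile (difference -0.25, adjusted p = 0.132), and Lrrc26 did not pass the test.

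The remaining ion-activated channels were lower where they passed. Kcnt2, a sodium-activated channel, was at -7.50 and -7.98 in positive cells, neither array well above background, against -3.72 and -3.99 in negative cells, at least 8.52-fold lower (limma adjusted p = 0.00119). Kcnn2, a small-conductance calcium-activated channel, was at -6.26 and -6.16, against -4.40 and -4.12, 3.87-fold lower (difference -1.95 ± 0.13, limma adjusted p = 0.00198). By normexp the difference was -1.23 for Kcnt2 and -0.63 for Kcnn2. Kcnn3 was 2.30-fold lower and Kcnn4 1.69-fold lower, and the Kcnn4 call was lost without positive array 2 (adjusted p = 0.0707), without negative array 2 (adjusted p = 0.0584) and after quantile normalization (adjusted p = 0.0589). Kcnt1 and Kcnu1 did not pass the test. None of the 4 genes that passed overlapped between groups, as held for every called channel gene.

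Of the inward rectifiers, Kcnj8 changed most. Kcnj8, the pore of the vascular ATP-sensitive channel, was at -8.06 and -8.27 in positive cells, neither array well above background, against -2.45 and -2.12 in negative cells (probe at chr6:142513487-142513546, minus strand). It was at least 25.3-fold lower (limma adjusted p = 5.0e-04). Abcc9, the regulatory subunit that pairs with Kcnj8 in vessels, was at -5.83 and -5.57 in positive cells, against -1.24 and -1.20 in negative cells, 22.3-fold lower (difference -4.48 ± 0.12, limma adjusted p = 5.0e-04). The normexp difference was -2.40 for Kcnj8 and -2.94 for Abcc9. The other ATP-sensitive pair gave no call: Kcnj11, the pore of the pancreatic type, was at -5.90 and -6.49, against -6.23 and -6.84, with overlapping groups (difference 0.34 ± 0.31, limma adjusted p = 0.431). Its partner Abcc8 differed by 0.17 ± 0.17 (limma adjusted p = 0.451), also with overlapping groups. All 5 mural and smooth muscle markers were lower in positive cells, and their mean log2 signal was -2.94 and -2.88 on the positive arrays, against 0.46 and 0.75 on the negative arrays, with none of the 5 dim in either group. Their part in the Kcnj8, Abcc9 and Kcnmb1 results was not tested.

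Of the inward rectifiers known from tubules, Kcnj10, Kcnj15 and Kcnj16 were lower in positive cells and Kcnj1 did not pass the test. Kcnj16 was at -2.72 and -3.34 in positive cells, against -0.17 and 0.08 in negative cells, 7.90-fold lower (difference -2.98 ± 0.25, limma adjusted p = 0.00325). Kcnj10, with which Kcnj16 forms the basolateral channel of the distal tubule, was at -4.06 and -4.61, against -2.06 and -1.86, 5.18-fold lower (difference -2.37 ± 0.22, limma adjusted p = 0.00439). For both genes every positive array was below every negative array. Kcnj15 was 2.94-fold lower (limma adjusted p = 0.0184), a call lost without negative array 1 (adjusted p = 0.0769) or negative array 2 (adjusted p = 0.0822). By normexp the difference was -1.65 for Kcnj10 and -0.78 for Kcnj15. Kcnj1, the potassium secretion channel of the loop and collecting duct, was at -2.38 and -5.21 in positive cells, against -2.02 and -2.31 in negative cells. Its positive arrays lay 2.84 log2 apart, and the difference of -1.63 ± 1.02 did not pass the test (limma adjusted p = 0.269); without positive array 1 it was -3.05 and passed (limma adjusted p = 0.00479). Slc12a1, a marker of the loop, was split in the same direction between the positive arrays, at -3.01 on array 1 and -9.07 on array 2, against -3.84 and -4.16 in negative cells. Over the 4 loop and distal tubule markers the mean log2 signal was -4.46 and -6.90 on the positive arrays, against -3.85 and -3.81 on the negative arrays, and 1 of the 4, Pou3f3, was called lower. On positive array 2, Slc12a1, Slc12a3 and Pou3f3 lay under its lowest signal well above background, -6.79. The size of the Slc12a1 split and the list mean on that array are therefore not measured levels. The part of these cells in the tubular channel values was not tested.

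Kcnj5, a G-protein-gated pore of heart and adrenal, was 7.14-fold lower in positive cells, at -4.18 and -4.62, against -1.59 and -1.54 in negative cells (difference -2.84 ± 0.18, limma adjusted p = 0.00161), with a normexp difference of -2.02. Kcnj2, a classical strong rectifier, was at least 1.42-fold lower (limma adjusted p = 0.00294), dim on both positive arrays, and after normexp background correction with the 75th percentile its difference was -0.16 with an adjusted p of 0.157. Kcnj3, Kcnj4, Kcnj12, Kcnj13 and Kcnj14 did not pass the test. In Kcnj13 the negative arrays were 2.01 log2 apart, at -3.13 and -5.13, around the positive values of -4.07 and -4.38.

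Of the 13 tested tandem-pore-domain channels, which carry background potassium current, 7 were lower and 1 higher (53.8% and 7.69%). Of all genes tested, 18.3% were lower and 20.7% higher. The numbers were 4 and 4 after centring on the array median or with normexp. After centring on the array median, 15.6% of all genes were lower and 44.8% higher. These shares were 17.4% and 28.7% after normexp with the 75th percentile, and 18.5% and 26.2% after normexp with quantile normalization. Kcnk6 was at -2.60 and -3.08 in positive cells, against -0.53 and -0.54 in negative cells, 4.95-fold lower (difference -2.31 ± 0.19, limma adjusted p = 0.00314). Kcnk1, of the same subfamily, was at -2.66 and -2.87, against -0.61 and -0.57, 4.52-fold lower (difference -2.18 ± 0.11, limma adjusted p = 0.00101). Kcnk5, an acid-sensitive channel of the proximal tubule, was at -3.21 and -3.19, against -1.80 and -1.69, 2.74-fold lower (difference -1.46 ± 0.09, limma adjusted p = 0.00157). These 3 genes held the only decreases of at least 2-fold among the 13 tested, and none of them overlapped between groups. Kcnk3, another acid-sensitive channel, was 1.98-fold lower (limma adjusted p = 0.00683). Kcnk9, Kcnk10 and Kcnk12 were also called lower, by -0.71, -0.62 and -0.49, but all 3 calls were lost after quantile normalization or centring on the array median. Without positive array 1, negative array 1 or negative array 2 the 3 calls were lost too, with adjusted p between 0.0669 and 0.141, and Kcnk12 differed by 0.04 after normexp with the 75th percentile (adjusted p = 0.674). Kcnk13, a halothane-inhibited channel, was the 1 member higher, by 0.70 ± 0.16 (limma adjusted p = 0.0380), and this call was lost without positive array 1 or either negative array. The 4 proximal tubule markers were all lower in positive cells, with a mean log2 signal of -1.50 and -1.98, against 1.06 and 1.12 in negative cells, and their part in these results was not tested.

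The epithelial sodium channel is built of alpha, beta and gamma subunits, and in positive cells the beta and gamma subunits were low while the alpha subunit did not pass the test. Scnn1g was at -6.58 and -8.04, against -3.31 and -3.41 in negative cells, and so was lower (difference -3.95 ± 0.53, limma adjusted p = 0.0107; probe at chr7:128911932-128911991). On positive array 2 the Scnn1g signal was not well above background. Scnn1b was at -4.78 and -6.08, against -1.83 and -2.05, 11.2-fold lower (difference -3.49 ± 0.48, limma adjusted p = 0.0113; probe at chr7:129061584-129061643). Positive array 2 was the lower of the positive arrays for both, by 1.46 log2 for Scnn1g and 1.30 log2 for Scnn1b, yet both positive arrays stayed below both negative arrays. Without negative array 1 the adjusted p was 0.0588 for Scnn1g and 0.0611 for Scnn1b, and without negative array 2 it was 0.0605 and 0.0596. Without positive array 1 the difference was -4.68 for Scnn1g and -4.13 for Scnn1b, and without positive array 2 it was -3.22 and -2.84. The -4.68 of Scnn1g thus rests on a positive signal that was not well above background. The normexp difference was -1.45 for Scnn1g and -2.09 for Scnn1b. Scnn1a was at -2.06 and -1.99 in positive cells, against -2.12 and -2.29 in negative cells, a difference of 0.19 ± 0.10 (limma adjusted p = 0.229). Scnn1a was called higher in positive cells after quantile normalization, with or without normexp, and after centring on the array median. Of the regulators of this channel outside the symbol rule, Prss8, a protease that cleaves and activates it, was 6.98-fold lower in positive cells (limma adjusted p = 0.00224). Sgk1, a kinase that keeps it at the surface, was 6.39-fold lower (limma adjusted p = 0.00124). Nedd4l, a ubiquitin ligase that removes it, was 3.53-fold lower (limma adjusted p = 9.7e-04). Hsd11b2, also listed for control of this channel, was 2.38-fold higher in positive cells (limma adjusted p = 0.00199). Nr3c2, from the same list, did not pass the test (difference -0.21, limma adjusted p = 0.168). These regulators were chosen after their values were seen. All 6 ureteric bud and collecting duct markers were lower in positive cells, with a mean log2 signal of -3.50 and -3.89 on the positive arrays, against 0.46 and 0.57 on the negative arrays, and none was dim in either group. Their part in the Scnn1b and Scnn1g results was not tested.

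**Figure D3:**
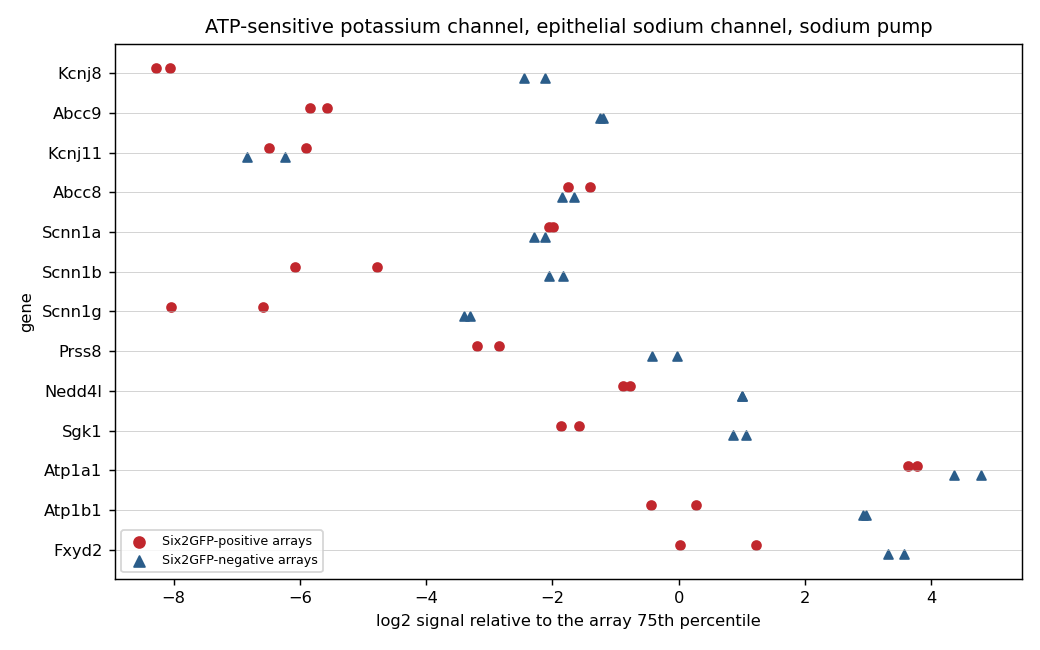
Log2 signal on each array, less the 75th percentile of that array, with groups by symbol (circles, Six2GFP-positive; triangles, Six2GFP-negative) for subunits and partners of the ATP-sensitive potassium channel, the epithelial sodium channel and the sodium pump. Groups are apart for Kcnj8 with Abcc9, for Scnn1b with Scnn1g and for the sodium pump subunits, and overlap for Kcnj11 and Abcc8; levels of different genes cannot be set against each other on this scale.

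Scnn1g and Scnn1b are neighbours on chromosome 7 in RefSeq's gene order. Of 20 pairs of channel genes next to each other in that order, 10 had both genes tested, and 2 of these, Scnn1g with Scnn1b and Kcnj16 with Kcnj2, were lower together. In 4 pairs 1 gene was lower and the other did not pass the test, in 1 pair 1 gene was higher and the other did not pass, in 3 pairs neither passed, and no pair had opposite calls. Kcnj5 and Kcnj1 formed 1 of the 4 pairs. The upstream sequences of Scnn1g and Scnn1b are shown because these genes lie side by side and were low together; each run is the 250 bases before the annotated start (RefSeq, build GRCm38.p6), read 5′ to 3′ on the gene's strand, with capitals marking the GC box GGGCGG, read on either strand.
Scnn1g, chr7:121734229-121734478, plus strand: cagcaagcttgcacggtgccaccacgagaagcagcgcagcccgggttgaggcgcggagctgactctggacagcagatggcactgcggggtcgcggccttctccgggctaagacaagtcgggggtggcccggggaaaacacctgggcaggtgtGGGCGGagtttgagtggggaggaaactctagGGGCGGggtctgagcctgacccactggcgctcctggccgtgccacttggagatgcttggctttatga
Scnn1b, chr7:121864788-121865037, plus strand: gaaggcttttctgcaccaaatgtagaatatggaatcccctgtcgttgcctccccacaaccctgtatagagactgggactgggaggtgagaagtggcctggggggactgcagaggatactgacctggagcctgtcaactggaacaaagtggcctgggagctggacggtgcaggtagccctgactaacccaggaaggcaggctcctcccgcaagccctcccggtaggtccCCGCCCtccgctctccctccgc
The Scnn1g window held 2 such matches and the Scnn1b window 1.

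Sodium channel alpha subunits, the pores of the action potential in nerve and muscle, gave 3 lower calls and none higher among 7 tested. The share lower was 42.9%, against 18.3% of all genes tested, and 20.7% of all genes were higher. Scn3a, an embryonic neuronal form, was at -8.97 and -8.79 in positive cells, neither array well above background, against -4.44 and -4.67 in negative cells, at least 5.25-fold lower (limma adjusted p = 5.1e-04). Scn1a was at -5.81 and -5.57, against -2.86 and -3.09, 6.56-fold lower (difference -2.71 ± 0.14, limma adjusted p = 0.00111). By normexp the difference was -0.95 for Scn3a and -1.42 for Scn1a. Scn7a, a sodium-sensing relative, was at least 1.18-fold lower (limma adjusted p = 0.00239), and its difference after normexp with the 75th percentile was -0.21 with an adjusted p of 0.0585. Scn4a, Scn8a and Scn11a did not pass the test. Scn8a was high on every array, at 2.47 and 2.44 in positive cells and 2.48 and 2.58 in negative cells, a difference of -0.07 ± 0.09 that took the other sign, 0.18, after centring on the array median. Among the beta subunits, Scn2b was at -1.97 and -1.51, against -0.97 and -0.75 (difference -0.88 ± 0.20, limma adjusted p = 0.0357), and was lost without positive array 1 (adjusted p = 0.0878), negative array 1 (0.0876) or negative array 2 (0.128) and after centring on the array median (0.0546). Scn3b and Scn4b did not pass. Of 5 tested neuronal and glial markers, Stmn2 and Tubb3 were among those past the threshold, both lower in positive cells, with a mean over the list of -4.15 and -3.92 on the positive arrays, against -2.86 and -2.93 on the negative arrays. Stmn2 was not well above background on the positive arrays, and the part of such cells in the sodium channel values was not tested.

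The calcium channel alpha-1 pores of the low-voltage-activated type ran in opposite directions. Cacna1h was at 1.51 and 1.54 in positive cells, against 0.15 and -0.41 in negative cells, 3.15-fold higher (difference 1.65 ± 0.22, limma adjusted p = 0.0101). Cacna1g was at -1.10 and -1.80, against 0.995 and 0.879, 5.22-fold lower (difference -2.38 ± 0.26, limma adjusted p = 0.00665). The groups overlapped for neither gene. The third pore of this type, Cacna1i, differed by 0.35 ± 0.16 and did not pass the test (limma adjusted p = 0.161). Cacna1d, a long-lasting type pore, was at -5.48 and -5.40, against -3.46 and -3.72, 3.61-fold lower (difference -1.85 ± 0.13, limma adjusted p = 0.00203). The normexp difference of Cacna1d was -0.89. Of the 6 tested alpha-1 pores 1 was higher and 2 lower (16.7% and 33.3%), against 20.7% and 18.3% of all genes tested. The split was 3 and 2 after quantile normalization, with or without normexp, and after centring on the array median. It was 2 and 2 after normexp with the 75th percentile. Under these scalings 24.9% to 44.8% of all genes were higher and 15.6% to 18.5% lower. Cacna1a and Cacna1s did not pass the test.

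The alpha-2/delta subunits, which carry calcium channels to the membrane, also ran both ways. Cacna2d1 was at 1.58 and 1.59 in positive cells, against 0.39 and 0.26 in negative cells, 2.40-fold higher (difference 1.26 ± 0.09, limma adjusted p = 0.00239). Cacna2d3 was at -7.72 and -7.51, neither array well above background, against -2.26 and -2.42, at least 24.3-fold lower (limma adjusted p = 5.0e-04; probe at chr14:29718399-29718458, minus strand), with a normexp difference of -2.25. Cacna2d2 was at -1.30 and -1.40, against 0.47 and -0.17, 2.82-fold lower (difference -1.50 ± 0.25, limma adjusted p = 0.0177; 0.0642 with positive array 1 left out and 0.0754 with array 2 left out). No group overlapped with the other in these 3 genes, and Cacna2d4 did not pass the test. The upstream windows of Cacna2d1 and Cacna2d3 are shown because these paralogs were called in opposite directions; capitals again mark GGGCGG on either strand.
Cacna2d1, chr5:15934441-15934690, plus strand: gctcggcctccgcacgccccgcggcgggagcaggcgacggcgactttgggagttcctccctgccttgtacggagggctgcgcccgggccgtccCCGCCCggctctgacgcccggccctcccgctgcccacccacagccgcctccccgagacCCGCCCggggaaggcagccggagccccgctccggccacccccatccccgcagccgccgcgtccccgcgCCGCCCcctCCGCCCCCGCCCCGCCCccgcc
Cacna2d3, chr14:29721865-29722114, minus strand: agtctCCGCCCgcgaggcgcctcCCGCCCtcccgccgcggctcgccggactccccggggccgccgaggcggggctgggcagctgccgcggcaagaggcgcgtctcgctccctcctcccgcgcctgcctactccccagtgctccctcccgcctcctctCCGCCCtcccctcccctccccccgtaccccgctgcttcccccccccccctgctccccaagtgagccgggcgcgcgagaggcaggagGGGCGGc
Cacna2d1 held 6 matches and Cacna2d3 held 4, with a GC content of 82.4% and 80.0%, so these letters were present upstream of the higher and of the lower gene.

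All 4 beta subunits, the cytosolic partners that bring alpha-1 pores to the surface, were higher in positive cells, against 20.7% of all genes tested. They were so under each of the other scalings tried, against 24.9% to 44.8% of all genes. Without the filter, with 31875 genes tested, only 1 of the 4, Cacnb4, was called higher, against 8.21% of all genes. Cacnb4 was at -1.59 and -1.59, against -4.24 and -4.87 in negative cells, 7.82-fold higher (difference 2.97 ± 0.24, limma adjusted p = 0.00297; probe at chr2:52289964-52290023, minus strand). The other 3 were higher by less than 2-fold: Cacnb2 by 1.64-fold, at -5.17 and -4.81, against -5.82 and -5.58 (limma adjusted p = 0.0432), Cacnb3 by 1.41-fold (limma adjusted p = 0.0250) and Cacnb1 by 1.39-fold (limma adjusted p = 0.0346). Groups did not overlap for any of the 4. The other tested Cacnb2 probe did not pass the test (difference 0.91, limma adjusted p over all probes = 0.110). The calls of Cacnb1, Cacnb2 and Cacnb3 were lost when any 1 of the 4 arrays was left out, with adjusted p between 0.0541 and 0.147. Among the gamma subunits Cacng4 was at -5.14 and -4.81, against -3.68 and -3.40, 2.69-fold lower (difference -1.43 ± 0.17, limma adjusted p = 0.00838), and Cacng6, a relative of the gamma subunit of skeletal muscle, was at 0.18 and 0.28, against -0.36 and -0.42, 1.54-fold higher (limma adjusted p = 0.0135). The Cacng6 call was lost with any 1 array left out, with adjusted p between 0.0529 and 0.0786. The normexp difference was 2.22 for Cacnb4 and -0.74 for Cacng4. Cacng7 and Cacng8 did not pass the test. Rem1, a small GTPase that inhibits calcium channels by binding beta subunits, was 4.44-fold higher in positive cells, and its relative Rrad 3.80-fold lower, with a normexp difference of -0.50; both lie outside the symbol rule and were chosen after their values were seen. Of 3 tested skeletal muscle markers Actn3 was higher, by 1.97, and Myod1 and Myh3 did not pass, with a list mean of -4.42 and -4.69 on the positive arrays, against -5.10 and -5.37 on the negative arrays.

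Upstream sequence was available for 100 of the 136 channel genes, as 135 windows (a gene may have several starts). GGGCGG on either strand was found in 43.7% of these windows, against 32.7% of all 32851 windows of the same length. The TATA box TATAAA was in 2.96% against 12.4%, and TCANGTTTC, a core pattern of Six-family sites, in 1.48% against 0.989%. All matches were searched on both strands, and a GGGCGG match can share an end base with a TCANGTTTC match. By call, GGGCGG was in 42.1% of windows of genes higher in positive cells and in 47.7% of windows of genes lower. Kcnmb2 and Kcnj8, the channel genes with the largest fitted increase and the largest fitted decrease, held none of the 3 patterns, and their windows are printed for that reason, without capitals.
Kcnmb2, chr3:31902453-31902702, plus strand: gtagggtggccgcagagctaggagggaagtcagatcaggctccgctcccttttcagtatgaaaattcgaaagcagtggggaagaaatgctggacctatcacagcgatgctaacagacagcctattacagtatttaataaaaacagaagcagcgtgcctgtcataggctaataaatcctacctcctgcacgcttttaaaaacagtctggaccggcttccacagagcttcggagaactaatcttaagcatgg
Kcnj8, chr6:142571615-142571864, minus strand: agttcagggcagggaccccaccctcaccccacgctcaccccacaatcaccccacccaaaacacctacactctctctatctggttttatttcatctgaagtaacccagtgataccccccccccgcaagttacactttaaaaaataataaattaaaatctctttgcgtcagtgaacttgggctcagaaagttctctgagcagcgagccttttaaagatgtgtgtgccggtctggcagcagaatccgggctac

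Of the 51 partner genes outside the symbol rule (regulators, auxiliary proteins, sodium pump and related cation channels), 46 were tested, and 13 were higher and 15 lower in positive cells, or 28.3% and 32.6%, against 20.7% and 18.3% of all genes tested. Their median difference was -0.16, against 0.15 over all genes tested. With any 1 array left out fewer partner genes were higher, as held for all genes tested. Amigo1 held the largest increase and Abcc9 the largest fitted decrease. Also among the higher were Fxyd6, a sodium pump modulator, by 4.67-fold (limma adjusted p = 7.6e-04) and Wnk4, a kinase of distal salt transport, by 4.63-fold (limma adjusted p = 6.2e-04). Among the lower, Fgf12, a sodium channel binding protein, was at least 5.96-fold lower (limma adjusted p = 5.7e-04), dim on both positive arrays, with a normexp difference of -0.92. Atp1b1, the pump's beta subunit of tubules, was at 0.28 and -0.43, against 2.92 and 2.97 in negative cells, 8.12-fold lower (difference -3.02 ± 0.27, limma adjusted p = 0.00360). Fxyd2, the gamma subunit of the renal pump, was 7.07-fold lower (limma adjusted p = 0.0161; 0.0659 without negative array 1 and 0.0791 without negative array 2), with a difference of -3.43 when positive array 1 was left out and -2.22 when positive array 2 was. Hcn4, Lrrc52, Nalcn and Unc80 were on the list but not among the genes tested, and no level is given for them.

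Of the 136 channel genes, 47 had more than 1 probe and 29 more than 1 tested probe. In 9 of these the probes differed by over 2-fold in their change, and among the 29 genes 0 had probes called in opposite directions and 10 had probes of which some passed the threshold and others did not. Kcnh8 differed most: its brightest probe was at -4.21 and -6.41 in positive cells, against -5.96 and -6.12, and did not pass the test (difference 0.73 ± 0.79, limma adjusted p = 0.499). Another Kcnh8 probe was dim on both positive arrays, at -8.06 and -8.05, against -4.83 and -4.59 in negative cells, and a further one was lower by -0.72. The brightest probe's difference became -0.37 with positive array 1 left out and 1.83 with positive array 2 left out, so its sign turned on positive array 1. For Scn8a, whose brightest probe gave no call, the other probe was at -6.01 and -5.63 in positive cells, against -4.12 and -3.79, lower by -1.86 (limma adjusted p over all probes = 0.00551). The Cacna1h increase of 1.65 was seen with the probe at chr17:25511235-25511294, while the probe at chr17:25569818-25569877 was at -4.02 and -3.97, against -4.11 and -4.06, and did not pass (limma adjusted p over all probes = 0.450). Scn1a gave -2.71 and, with its other probe, -0.57 (limma adjusted p over all probes = 0.0582). In Cacna1d, Cacna2d2 and Kcne3 both probes were called lower, at -1.85 and -0.62, at -1.50 and -2.57, and at -1.37 and -3.24. In Kcnd3 and Kcne4 the second probe was dim on both positive arrays and missed the threshold. For Kcna7 and Cacng7, whose brightest probe gave no call, the other probe was called higher. Its difference was 0.57 for Kcna7 and 0.36 for Cacng7 (limma adjusted p over all probes = 0.0190 and 0.0405).

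**Figure D4:**
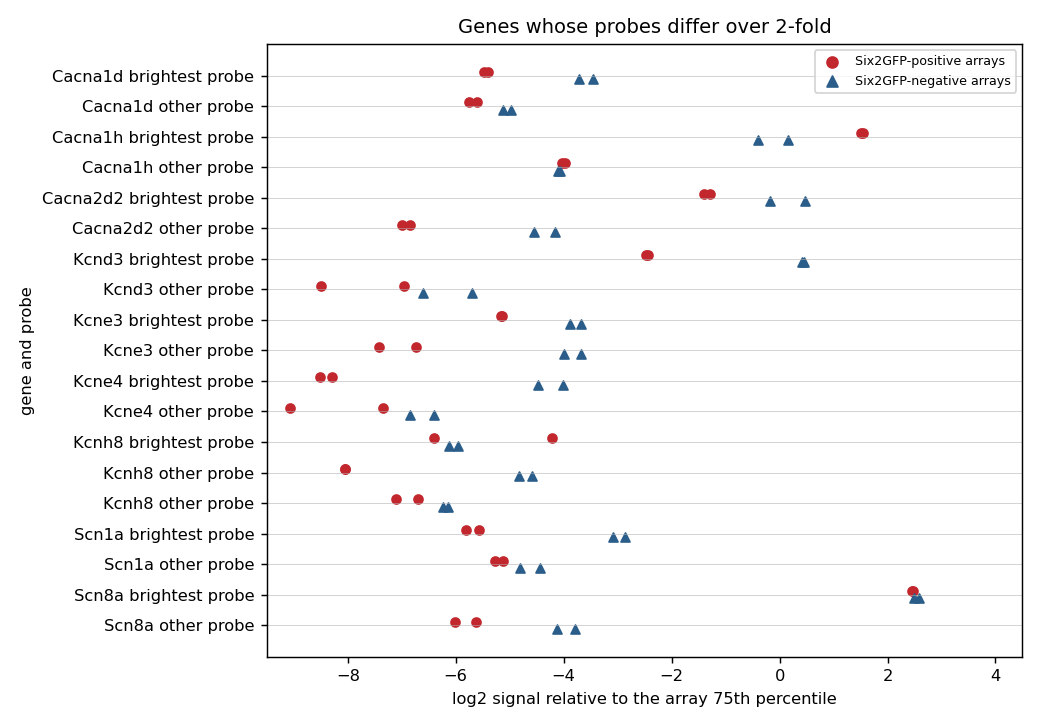
Log2 signal on each array, less the 75th percentile of that array, with groups by symbol (circles, Six2GFP-positive; triangles, Six2GFP-negative) for every tested probe of the 9 channel genes whose probes changed by amounts over 2-fold apart. The groups lie apart for 1 probe of Cacna1h and close together for the other, and the brightest Kcnh8 probe has its positive arrays 2.20 log2 apart.

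Of the 48 tested channel genes that did not pass the threshold, 42 lay within 0.5 log2 of 0 and 20 had overlapping groups. They included the modulatory alpha subunits Kcng1 and Kcng2, the ether-a-go-go relative Kcnh4, the auxiliary genes Kcnab1, Kcnab3, Kcne1l and Kcnrg, and the tandem-pore-domain genes Kcnk2, Kcnk4, Kcnk15 and Kcnk16, with differences from -0.19 in Kcng1 to 0.60 in Kcnk15. Kcnk7 was dim on the positive arrays and lay 2.33 log2 lower on array 1 than on array 2. Positive arrays differed by over 1 log2 for Kcnj1, Kcnh8, Scnn1g, Scnn1b, Kcnh5 and Kcnk7, and negative arrays for Kcnj13 only, among the 106 tested. The 30 channel genes that could not be tested include 19 with no array well above background on any probe, and 11 with some. They included the voltage-gated potassium alpha subunits Kcna10, Kcna2, Kcng3, Kcng4, Kcnh1, Kcnh6, Kcnh7, Kcnq3, Kcns1, Kcns2 and Kcnv1, the potassium auxiliary subunits Kcnab2, Kcne1, Kcne2 and Kcnmb3, the inward rectifiers Kcnj6 and Kcnj9, the tandem-pore-domain Kcnk18 and the calcium-activated Kcnn1. They also included the sodium channel alpha subunits Scn10a and Scn9a, the calcium channel alpha-1 pores Cacna1b, Cacna1c, Cacna1e and Cacna1f, and the gamma subunits Cacng1, Cacng2, Cacng3 and Cacng5, and no level is given for any of the 30.

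**Figure D5:**
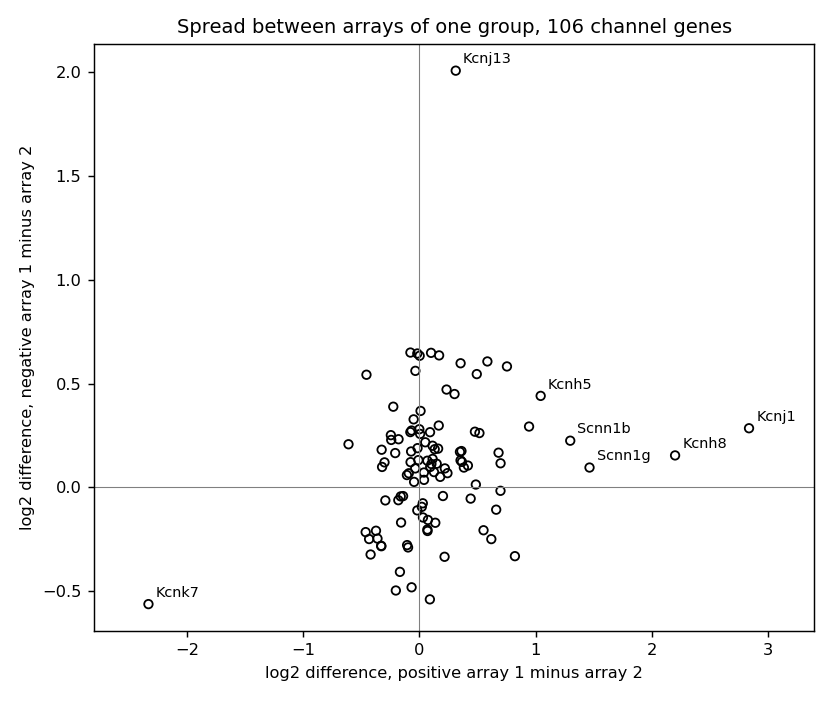
Log2 difference between the arrays of a group for each of the 106 tested channel genes, positive array 1 minus 2 on the horizontal axis and negative array 1 minus 2 on the vertical axis. The 7 labelled genes differ by over 1 log2 on at least 1 axis; Kcnj1 reaches 2.84 and Kcnk7 -2.33 in positive cells, and Kcnj13 reaches 2.01 in negative cells.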

How the data were processed

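Gene expression was measured in 2 Six2GFP-positive and 2 Six2GFP-negative samples, grouped by their titles. Tamoxifen appears in the description field but in no protocol, and the cell type label is the same for positive and negative samples; neither field was used. Per the file headers, the authors quantified 1-colour (Cy3) arrays of design 026655 in Agilent Feature Extraction 10.7.3.1 (protocol GE1_107_Sep09), with spatial and multiplicative detrending and no scaling between arrays. The deposited values are linear intensity per spot, with probe positions on mm9. The series-wide table that was deposited repeats this intensity: 99.8% of its probes lay within 0.01 log2 of the scanner value on each array, so it is linear and not centred.

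Outlier spots (108 to 174 of 43020 per array) were left out, which removed 34 probes entirely. Spots of a probe were averaged as log2 and set relative to the array's 75th percentile, a signal of 1430 and 1410 for positive arrays 1 and 2, and 1604 and 1587 for negative arrays 1 and 2. The filter asked for a signal well above background on both arrays of either group (30012 probes passed), and a gene was its brightest kept probe. Channel probes kept the name in the file, and all 136 names are current RefSeq symbols; 26055 probes were named by accession. limma 3.58.1 (R 4.3.3; lmFit and eBayes, two-sided) was fitted over 24150 genes with Benjamini-Hochberg adjustment, and the fit was tested on simulated data. An exact permutation test of 2 against 2 cannot go below p = 0.333, so none was used. Bounds replaced fold changes where no array of a group was well above background; probes that only 1 array of a group measured keep their fitted value.

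The members and gene lists were chosen with earlier results of these data known. Values on all arrays were given for the 10 largest differences in each direction, the 2 largest per class and genes whose probes differ over 2-fold, and the 4 largest partner differences in each direction were named; other named genes were chosen after their values were seen. Alternatives were other scaling, normexp background correction (offset 50), the deposited table, other filters, other handling of probes, a robust variance with an intensity trend, a block for the replicate number, and each array left out in turn. Same-numbered samples share only a number: across genes, their deviations correlated at 0.22. Symbols, gene order and upstream windows came from RefSeq tables (windows on GRCm38.p6). Probe positions are on mm9 and were not set against an annotation, so the exon or UTR in which a probe lies is not given. Some genes of the symbol rule and of the lists are counted but not reported here by name.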

Additional observations from a re-analysis of the deposited data

How the results depend on the processing

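The number of channel genes higher in positive cells, 16, was 29 after quantile normalization, 34 after centring on the array median, 29 after normexp with quantile normalization and 8 to 13 with 1 array left out. The number lower, 42, was 25 with a filter on all 4 arrays, where fewer genes are tested, and 33 to 38 with 1 array left out. The number lower by at least 2-fold, 35, was 19 after normexp with the 75th percentile, 20 after normexp with quantile normalization and 19 with the filter on all 4 arrays. The median difference, -0.11, changed sign to 0.076 after quantile normalization, 0.14 after centring on the array median, 0.0175 after normexp with the 75th percentile and 0.11 with the filter on all 4 arrays. It was -0.0002 after normexp with quantile normalization and -0.19 with the mean of probes, and ran from -0.19 to -0.0751 with 1 array left out. The median of all genes was 0.15, and 0.41 after centring on the array median. Partner genes higher, 13, were fewer with any 1 array left out, as held for all genes tested. Lower calls were 72.4% of the channel calls, against 46.9% of the calls over all genes. After quantile normalization they were 56.7% against 41.5%, and with normexp as well 56.7% against 41.3%. They were 52.8% against 25.8% after centring on the array median, and 60.7% against 37.7% after normexp with the 75th percentile. Differences of single genes that changed sign were Kcnh8 (-0.79 after normexp with the 75th percentile, -1.11 with the mean of probes, -0.37 to 1.83 with a positive array left out), Scn8a (0.18 after centring on the array median) and Kcnk12 (0.0387 after normexp with the 75th percentile). Where no other construction is named, the cause was not tested. Among calls of at least 2-fold, 7 of 9 higher and 27 of 35 lower passed under every alternative run with a value; of the smaller ones, 1 of 7 higher and 1 of 7 lower did. With the replicate number as a block, 17 were higher and 43 lower, and 57 of the 58 calls remained, Kcnk10 being lost (adjusted p = 0.0744). Probes near background give only bounds, which limits 15 of the tested genes.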
